A study of Mus musculus with 2 samples.

Results

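The genes described are the Rbfox, Mbnl and Celf genes, 3 families of RNA-binding proteins that act on alternative splicing. They are the 9 genes Rbfox1, Rbfox2, Rbfox3, Mbnl1, Mbnl2, Mbnl3, Celf1, Celf2 and Celf4, of 21938 protein-coding genes on the chromosomes that hold peaks. They were chosen on the values of these libraries, by name and by the peaks near them, so their counts and heights are a description and carry no test. DNase-seq, which maps open chromatin from the places where DNase I can cut the DNA, was carried out on gastrocnemius, a calf muscle. The mice were female B6CASTF1/J mice, a first-generation hybrid strain, aged 10 days, with 3 mice pooled per library. There was 1 group with 2 libraries, replicate 1 and replicate 2, and no treatment, mutation or other condition. The labels name a single donor entry for both pools, so the difference between the libraries is the only measure of error and may be partly technical.

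Rbfox proteins bind a UGCAUG element in RNA, and where they bind relative to an alternative exon sets whether the exon is kept or skipped. Mbnl (muscleblind-like) and Celf (CUGBP Elav-like family) proteins act in opposite directions on many of the same muscle exons while fetal splice forms give way to adult forms after birth. In myotonic dystrophy, expanded CUG repeats sequester Mbnl proteins. Rbfox1 and Rbfox2 are made in muscle, heart and neurons, whereas Rbfox3 encodes NeuN, which is widely used as a marker of neurons. Celf1 and Celf2 are broadly made, and Celf4 is known mainly from the nervous system.

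Replicate 1 held 114758 peaks and replicate 2 held 26804, with median heights of 1.18 and 1.48. A height is the peak's signal, normalized to read depth by the authors. The step between height values was 0.00597 in replicate 1 and 0.0107 in replicate 2, and if both share a scale these steps put replicate 1 at 1.8 times the depth of replicate 2. Because the lists differ so much in length, a further count was taken over the 26804 tallest peaks of replicate 1, whose lowest height was 2.71. Among member peaks, the ones nearest to that height were an Rbfox2 peak of 2.76 just inside and a Celf4 peak of 2.68 just outside. Of 12 skeletal muscle marker genes, 7 had a peak within 1 kb of an annotated start in replicate 1, 3 among its tallest peaks, and 3 in replicate 2; Acta1, Tnnt3, Myh4, Des and Myog had none in replicate 1. Of 12 neuronal marker genes the counts were 12, 11 and 5, and of 12 markers of Schwann, endothelial, connective tissue, immune, mural and satellite cells they were 3, 2 and 4. Of all protein-coding genes, 66.7%, 49.6% and 51.4% had such a peak in these counts. Neuronal start peaks reached heights of 1.67 to 16.1 in replicate 1 and 0.654 to 2.05 in replicate 2. For the skeletal muscle markers these ranges were 0.65 to 14.7 and 1.22 to 5.02. For the markers of other cells they were 2.57 to 9.56 and 1.19 to 3.0. Acta1 had a start peak in replicate 2 only, of 1.22. The part of other cell types in the member peaks was not tested, and in whole tissue fewer cells of a type cannot be told apart from less open chromatin per cell.

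All members but Rbfox1 were open at a start in both libraries. A peak lay within 1 kb of an annotated start in 9 of 9 members in replicate 1, in 8 of 9 among its tallest peaks, where Mbnl3 had none, and in 8 of 9 in replicate 2, where Rbfox1 had none. In both libraries 8 of 9 members had such a peak. Over all protein-coding genes the shares were 66.7%, 49.6% and 51.4%, and 51.0% in both. Transcript starts of a gene were joined into start regions when they lay within 500 bp, and regions are numbered from the 5′ end of the gene. The 9 genes had 58 start regions, of which 30 held a peak in replicate 1, 15 among its tallest peaks, 14 in replicate 2 and 14 in both. Over the 52546 start regions of all 21938 protein-coding genes these shares were 39.6%, 25.4%, 26.1% and 25.5%. The members thus had more start regions per gene, and the shares per gene above were not scaled to that number. Counted by region, the members did not exceed all genes in replicate 2 or in both libraries. A peak within 1 kb of neighbouring regions counted at each of them, for members and for all genes. No member region held a peak only in replicate 2, 16 held one only in replicate 1, and 28 held none. In replicate 2, 3 of the 44 regions with no peak held an interval with a false discovery rate (FDR) of at most 0.05 in the authors' interval list. In replicate 1, 4 of the 28 regions with no peak held one.

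Start regions rich in CpG, the kind that most widely used genes have, made up 9 of the 14 member regions open in both libraries. Over all protein-coding genes they made up 10033 of 13395 regions open in both. Of 14 regions with an observed to expected CpG ratio of at least 0.6 in the 1 kb around the first start, 13 held a peak in replicate 1 and 9 in both, against 95.4% and 79.9% of such regions over all protein-coding genes. Of 44 regions with a lower ratio, 17 held a peak in replicate 1 and 5 in both, against 22.0% and 8.41%. Among 36 regions with a protein-coding transcript, 21 held a peak in replicate 1 and 10 in replicate 2, against 51.3% and 36.7% of such regions over all genes. Among 22 without one, 9 and 4 did, against 17.8% and 6.42%. All 4 in replicate 2 held only peaks that were also counted at a neighbouring region with a coding transcript. They were Mbnl1 region 3, Mbnl3 region 1, Celf2 region 5 and Celf4 region 2.

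**Figure D1:**
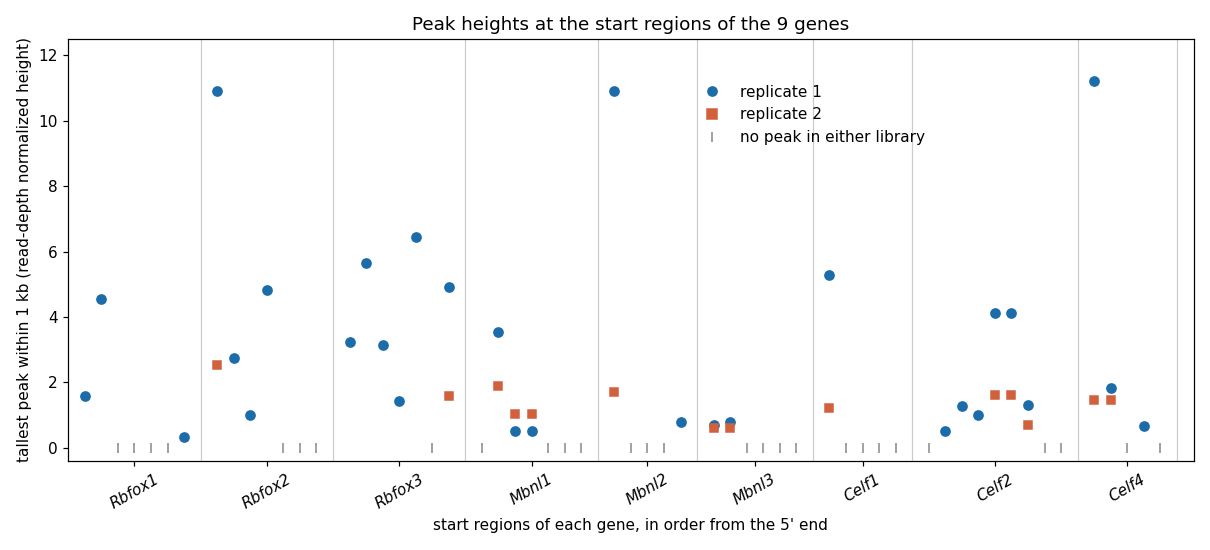
Height of the tallest peak within 1 kb of each start region (vertical axis, read-depth normalized height), with the start regions of each gene in order from the 5′ end; circles are replicate 1, squares replicate 2, and grey ticks regions with no peak in either library. Rbfox2, Mbnl2 and Celf4 reach 10.9 to 11.2 in replicate 1, while no square is above 2.52.

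Rbfox2 and Mbnl2 had the tallest start peaks of the Rbfox and Mbnl families in replicate 1. Rbfox2, which acts in muscle as in many tissues, lies at chr15:77078990-77307004 on the minus strand and has 7 start regions. Its first region held peaks of up to 10.9 in replicate 1 and 2.52 in replicate 2, or percentiles 96.1 and 85.0 of all peaks of each library. The tallest replicate 1 peak, at chr15:77306841-77307220, extended before the start, and the 3 replicate 2 peaks lay inside the gene. The tallest of these, at chr15:77306621-77306900, overlapped the replicate 1 peak, but by less than 50% of either peak, the overlap required to pair peaks between the libraries. The pair that met that rule had heights of 1.16 and 1.07. Its internal regions 2, 3 and 4 held peaks in replicate 1 alone, of 2.76 at 61.4 kb, 0.991 at 103.6 kb and 4.82 at 153.2 kb. Region 3, a noncoding start, held no peak in replicate 2 but an interval with an FDR of 0.000827. Regions 4 and 2 start shorter Rbfox2 proteins, with at most 381 and 299 codons, against 449 from the first region.

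Rbfox1, a splicing regulator of muscle and neurons whose gene spans 1526 kb at chr16:5885355-7411526 on the plus strand, was the member with no start peak in replicate 2. Region 2, 463.8 kb into the gene, held 3 peaks of up to 4.54 in replicate 1, and region 1 held 2 of up to 1.6. Regions 3 to 6 held none in either library, and region 7, annotated only from a transcript incomplete at its start, held 1 low peak of 0.334 in replicate 1. No Rbfox1 start region held a peak or an interval with an FDR of at most 0.05 in replicate 2.

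Rbfox3, at chr11:118489762-118911597 on the minus strand, held peaks at 6 of its 7 start regions in replicate 1 and at 1 in replicate 2. In replicate 1 region 5, 150.6 kb into the gene, reached 6.44 and region 2, the start of 4 transcripts in CpG-rich sequence, reached 5.66. Both lacked a peak in replicate 2. The region open in both libraries was the last, region 7 at 404.2 kb, which starts a transcript of 145 codons. Its peak had a height of 4.91 in replicate 1 and 1.6 in replicate 2, with 4 and 1 footprints. Footprints are short protected stretches inside open chromatin, of the kind a bound protein leaves.

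The 250 bases before the first start of 3 regions are given in the direction of transcription, from the GRCm38 (mm10) RefSeq genome, to set a promoter open in both libraries (Mbnl2) beside 1 whose peaks differ in place (Rbfox2) and 1 open in replicate 1 only (Rbfox1). They lie at chr14:120275419-120275668 (plus), chr15:77307005-77307254 (minus) and chr16:6348888-6349137 (plus), before the annotated transcripts of those regions. Capitals mark bases inside a footprint of either library.
Mbnl2 start region 1: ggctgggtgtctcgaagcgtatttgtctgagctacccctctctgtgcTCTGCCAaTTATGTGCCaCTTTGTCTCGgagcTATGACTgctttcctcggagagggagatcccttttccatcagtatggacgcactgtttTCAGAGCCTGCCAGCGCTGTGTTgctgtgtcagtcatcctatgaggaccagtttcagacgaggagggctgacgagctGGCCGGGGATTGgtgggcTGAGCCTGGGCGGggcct
Rbfox2 start region 1: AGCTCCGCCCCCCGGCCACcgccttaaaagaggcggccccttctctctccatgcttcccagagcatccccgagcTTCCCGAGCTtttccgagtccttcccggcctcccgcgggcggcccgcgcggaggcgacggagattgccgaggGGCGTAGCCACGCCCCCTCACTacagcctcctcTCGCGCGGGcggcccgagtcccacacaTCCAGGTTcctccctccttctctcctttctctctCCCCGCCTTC
Rbfox1 start region 2: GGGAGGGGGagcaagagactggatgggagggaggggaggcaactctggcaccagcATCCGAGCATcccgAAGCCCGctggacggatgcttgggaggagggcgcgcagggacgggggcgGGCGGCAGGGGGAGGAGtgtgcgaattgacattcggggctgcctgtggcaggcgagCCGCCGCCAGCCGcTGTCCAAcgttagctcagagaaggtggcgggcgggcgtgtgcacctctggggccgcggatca
Replicate 1 peaks covered 148, 216 and 250 of these bases in that order, and replicate 2 peaks covered 68 at Mbnl2 and 0 at the other two. The letters GGGCGG, the GC box of SP and KLF factors, occur on either strand once in the Mbnl2 stretch, inside footprint bases, and 3 times in each of the others. In replicate 1 GGGCGG was in the central 150 bp of 17 of 57 member start peaks (29.8%) and of 41.6% of all peaks at starts; in replicate 2 it was in 6 of 17 (35.3%) and in 39.0%.

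Of the Mbnl genes, Mbnl1, the main Mbnl protein of adult muscle, had no peak at its first start region in either library and was open at its second. Mbnl1 lies at chr3:60472830-60629750 on the plus strand. Region 2, 28.1 kb in, starts 8 transcripts with up to 381 codons and has a CpG ratio of 0.89, against 0.18 at region 1. It held 1 peak of 3.53 in replicate 1 and 3 peaks of up to 1.88 in replicate 2, over 440 and 609 bp. Regions 3 and 4, near 55.3 and 56.2 kb, had the same low peaks of up to 0.507 in replicate 1 and a peak of 1.04 in replicate 2.

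Mbnl2, the paralog with a large part in brain splicing, lies at chr14:120275669-120431697 on the plus strand. Its first start had 1 peak in each library, of 10.9 in replicate 1 and 1.7 in replicate 2, with 4 and 3 footprints, overlapping at chr14:120275601-120275720. The next 3 regions held no peak in either library. Mbnl3, an X-linked paralog made mainly in development and in regenerating muscle, lies at chrX:51117269-51206532 on the minus strand and had the lowest start peaks, of at most 0.8 in replicate 1 and 0.622 in replicate 2, or percentiles 33.0 and 6.96. Its 4 regions further in held none in either.

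Of the Celf genes, Celf1, whose protein rises in myotonic dystrophy muscle, lies at chr2:90940382-91019497 on the plus strand and was open only at its first region, with peaks of up to 5.29 in replicate 1 and 1.23 in replicate 2. Its 4 later regions, including 2 with coding transcripts, held no peak in either library. Celf2, at chr2:6539694-7509563 on the minus strand, held peaks at 6 of 9 regions in replicate 1. The tallest, 4.12, served neighbouring regions 5 and 6 about 637.0 kb into the gene, with CpG ratios of 1.0 and 0.99, and replicate 2 had a peak of 1.61 there. The peaks of the libraries there did not overlap by the 50% used to pair them. The 5′-most coding region of Celf2, region 2, which starts 3 transcripts, reached 0.513 in replicate 1 and had no peak in replicate 2. Region 7, at 787.3 kb and the start of 8 transcripts, had 1.31 in replicate 1 and 0.686 in replicate 2.

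Inside the genes, more than 1 kb from every start, the 9 members held 249 peaks in replicate 1, 48 of its tallest, and 12 in replicate 2. Every member held at least 1 in replicate 1, 6 of 9 among its tallest peaks and 5 of 9 in replicate 2, where 43.3%, 16.3% and 12.4% of all protein-coding genes did. The members are long, 3904 kb together, so densities are the fairer comparison. Per 100 kb the members held 6.38 peaks in replicate 1, 1.23 of its tallest and 0.307 in replicate 2, against 4.09, 0.691 and 0.445 over all protein-coding genes. The pooled density was above that of all genes in both counts of replicate 1 and below it in replicate 2, but single members differed. Without Rbfox3 and Celf4 it was 4.37, 0.593 and 0.156, below all genes among the tallest peaks too. In replicate 2, Celf4 with 1.08, Rbfox3 with 0.948 and Mbnl1 with 0.637 lay above 0.445. Of the inside peaks, 8 were shared, meaning that peaks of both libraries overlapped by 50% or more of at least 1 of them: 3.21% of the 249 and 66.7% of the 12. Over all peaks away from starts, 7.96% in replicate 1 and 70.5% in replicate 2 were shared.

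**Figure D2:**
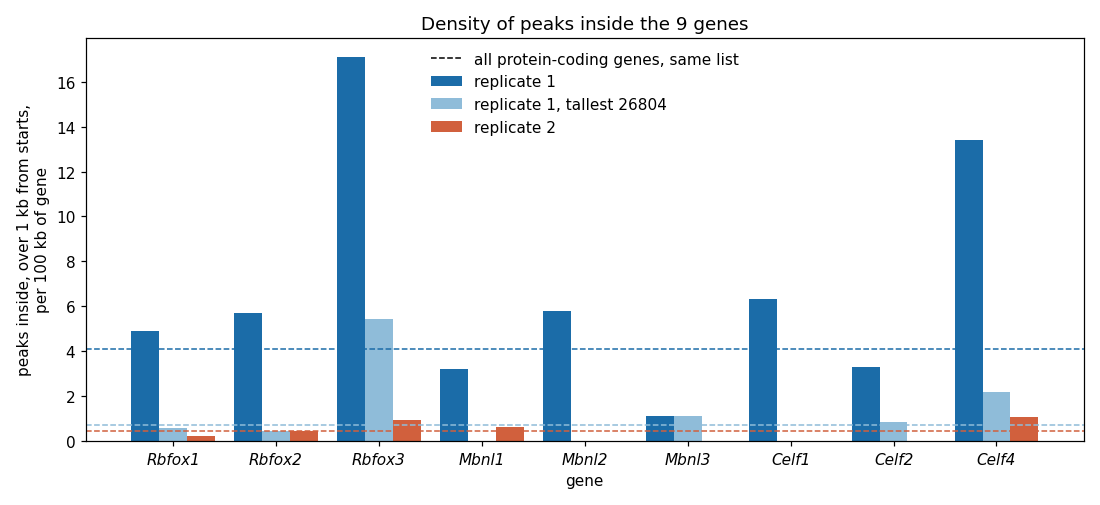
Peaks inside each gene and more than 1 kb from its starts, per 100 kb of gene (vertical axis from 0), for replicate 1, its 26804 tallest peaks and replicate 2; dashed lines give the same density over all protein-coding genes. Rbfox3, at 17.1 in replicate 1, and Celf4, at 13.4, stand farthest above the line of 4.09. Rbfox1, Rbfox2, Mbnl2 and Celf1, at 4.91 to 6.32, also lie above it, and Mbnl1, Mbnl3 and Celf2 lie below it.

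Rbfox3, whose protein marks neurons, was the member with the densest inside peaks in replicate 1, at 17.1 per 100 kb. With 10.8% of the members' length it held 72 of the inside peaks in replicate 1 (28.9%), 23 of those among its tallest (47.9%) and 4 in replicate 2 (33.3%). Among all protein-coding genes it ranked 10th by number of inside peaks in replicate 1, 4th among its tallest, and 123rd in replicate 2. Ranks by number favour long genes. By density among the 5007 genes of 50 kb or longer, Rbfox3 ranked 45th, 79th and 800th. Of all 86 peaks in the gene in replicate 1, start peaks included, 25 lay in a 50 kb stretch that begins 0.2 kb from its 5′ end. The median gap between the 86 peaks was 2.36 kb. The tallest inside peak of any member, 15.0 or percentile 98.1, lay 160.4 kb into Rbfox3. Of the 72 inside peaks 71 were intronic. Celf4 ranked 82nd, 128th and 188th by number, with 37, 6 and 3 inside peaks, and its tallest in replicate 1 was 9.54. By density among the long genes it ranked 164th, 480th and 695th. Rbfox1 had the most inside peaks in replicate 1, 75, but along its length that was 4.91 per 100 kb, with 9 among the tallest and 3 in replicate 2. Inside the 12 neuronal marker genes lay 54, 14 and 3 peaks in the same 3 counts, and inside the 12 skeletal muscle markers 16, 3 and 3. The 12 markers of other cells held 29, 6 and 13. These marker counts were not scaled to gene length. Whether cells of another type gave the Rbfox3 and Celf4 peaks was not tested.

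In the other members, Celf2 had 32 in replicate 1, 8 of its tallest and 0 in replicate 2, with the tallest, 8.65, at 336.2 kb. Rbfox2 had 13, 1 and 1, and its tallest in each library were 3.17 and 1.02 at different places. Mbnl2 had 9 in replicate 1, of at most 2.01, and Celf1 had 5, of at most 2.28; neither had any among the tallest or in replicate 2. Mbnl1 had 5, 0 and 1. Mbnl3 had 1, an exonic peak of 2.97, and none in replicate 2.

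**Figure D3:**
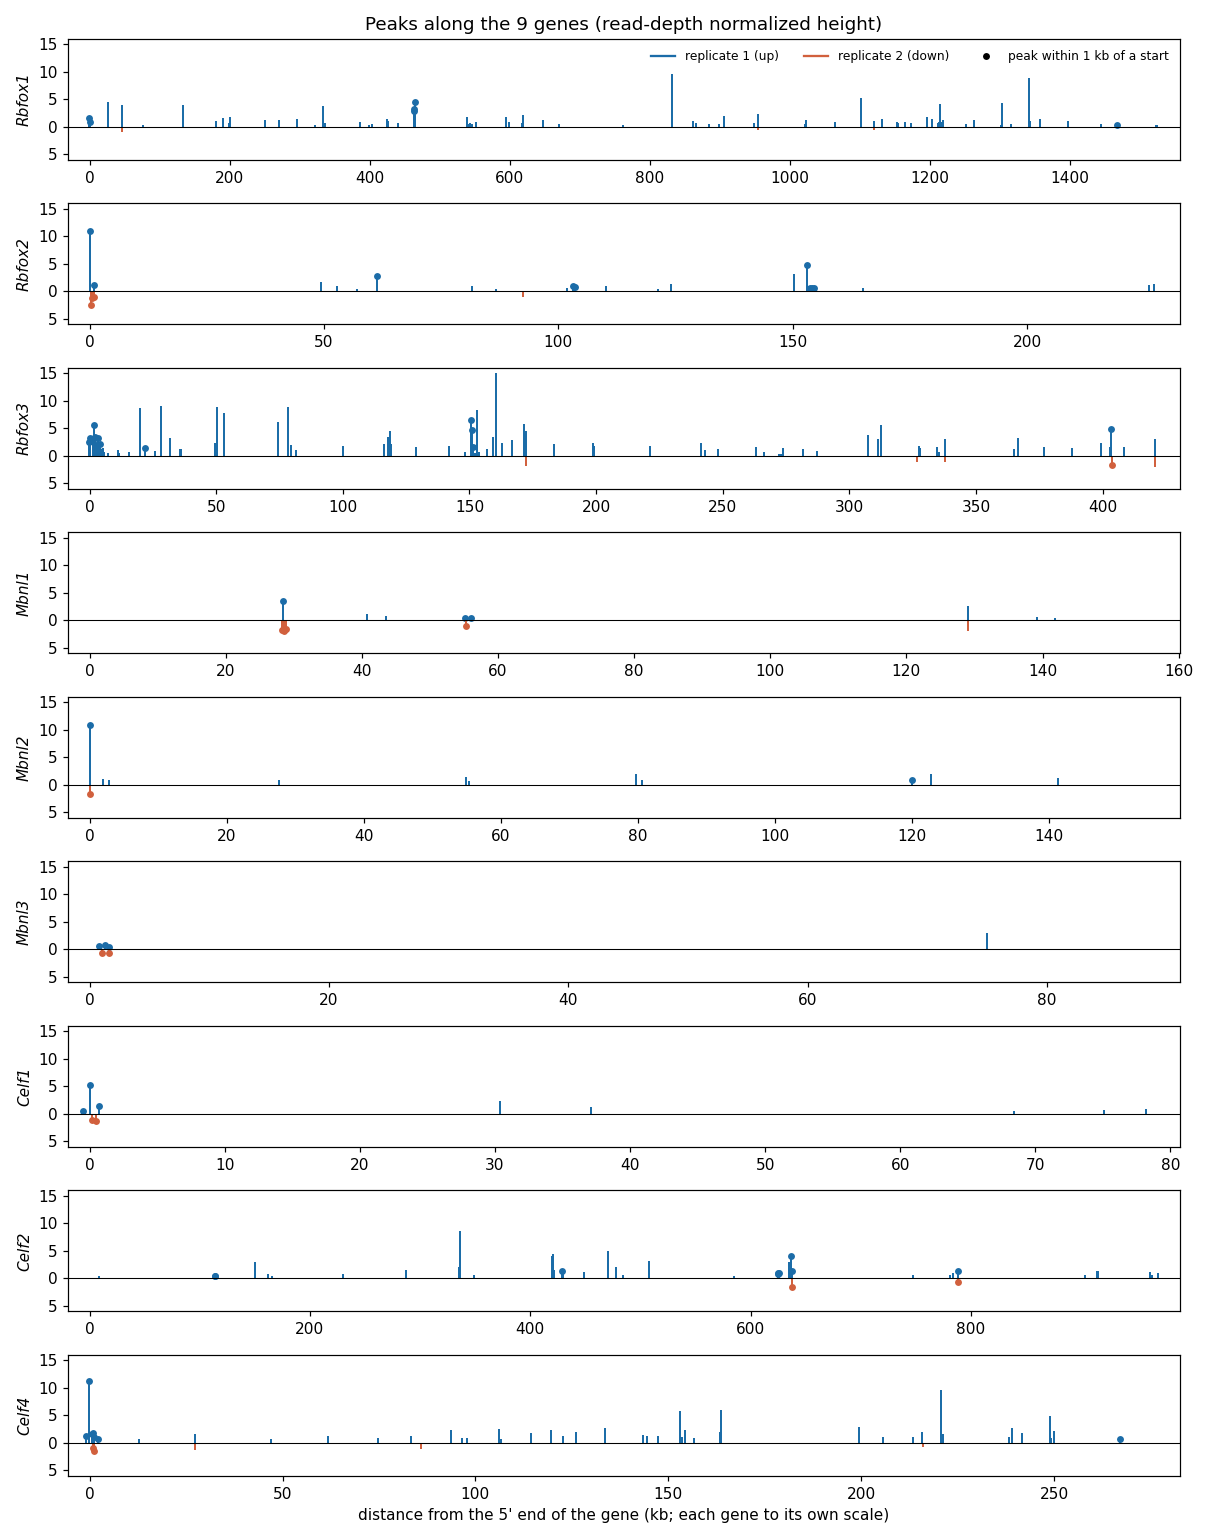
Peaks along each gene by distance from its 5′ end in kb, each gene to its own scale, with replicate 1 heights drawn upward and replicate 2 heights downward; dots mark peaks within 1 kb of a start. Rbfox3 and Celf4 hold many peaks upward and few downward, with the tallest, 15.0, in Rbfox3 at 160.4 kb. The shorter Mbnl1, Mbnl2 and Celf1 hold 5, 9 and 5 upward beyond their starts.

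The tallest inside peaks of replicate 1 in Rbfox1, Rbfox3 and Celf2 had no peak in replicate 2 that overlapped them by that measure. They are intronic, at chr16:6716341-6716520 (plus), chr11:118751061-118751280 (minus) and chr2:7173281-7173460 (minus), and are shown as the tallest inside peak of each of these genes. Celf4 had a taller one than Celf2, of 9.54, whose sequence is not shown. Capitals again mark footprint bases.
Rbfox1 site at 831.1 kb: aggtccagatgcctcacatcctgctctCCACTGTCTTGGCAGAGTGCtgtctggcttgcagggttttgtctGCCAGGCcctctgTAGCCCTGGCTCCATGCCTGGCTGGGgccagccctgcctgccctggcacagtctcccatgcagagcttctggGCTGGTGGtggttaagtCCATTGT
Rbfox3 site at 160.4 kb: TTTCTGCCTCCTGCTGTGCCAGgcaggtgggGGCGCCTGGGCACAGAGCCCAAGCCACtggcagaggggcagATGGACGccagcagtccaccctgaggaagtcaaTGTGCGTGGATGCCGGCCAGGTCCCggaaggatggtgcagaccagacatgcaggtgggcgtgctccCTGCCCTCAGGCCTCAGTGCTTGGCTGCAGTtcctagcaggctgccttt
Celf2 site at 336.2 kb: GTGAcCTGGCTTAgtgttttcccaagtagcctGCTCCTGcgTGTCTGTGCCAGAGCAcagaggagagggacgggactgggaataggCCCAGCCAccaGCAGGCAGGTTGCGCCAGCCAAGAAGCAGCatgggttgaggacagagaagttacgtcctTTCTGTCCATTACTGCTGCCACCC
Heights were 9.55, 15.0 and 8.65, and footprint bases numbered 68, 112 and 97. Each holds TTGGC, a short site of NFI factors, on 1 of the strands and inside footprint bases. These stretches were searched over their whole length, and the Rbfox3 match lies outside the central 150 bp of its peak. Such letters are common: they were in the central 150 bp of 120 of 249 inside peaks of replicate 1 (48.2%) and of 50.7% of all its peaks away from starts. The Rbfox3 site also holds CAGGTG at 2 places, and both it and the Rbfox1 site hold CAGATG at 1; these are E-box letters that basic helix-loop-helix factors bind.

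Among E-box letters, CAGCTG, bound by MyoD family and other basic helix-loop-helix factors, was in 24 of the 72 inside peaks of Rbfox3 in replicate 1 (33.3%), against 20.9% of the inside peaks of all members and 18.0% of all peaks away from starts. CAGGTG was in 22.2%, 19.7% and 16.7% of these sets, and CAGATG, which proneural factors bind, in 26.4%, 25.3% and 24.3%. MEF2 and CArG elements, both of muscle promoters and enhancers, were in 2 (0.803%) and 1 (0.402%) of the 249 inside peaks of replicate 1, and in 0.763% and 0.536% of its peaks away from starts. The TEAD letters GGAATG were in 10.0% of the inside peaks against 8.54%, the AP-1 letters TGANTCA in 4.42% against 4.48%, and the RUNX letters TGTGGT in 7.23% against 10.7%. The NRF1 site was in 0 of the 249 and in 0.168% of all. All motifs were searched on both strands, and matches to different motifs could overlap, as CAGGTG can with the CTCF consensus.

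The shared inside peaks lay in Rbfox1 (3), Rbfox3 (3), Mbnl1 (1) and Celf4 (1). Those of Rbfox1 had heights of 3.9, 2.3 and 1.03 in replicate 1 and 0.868, 0.643 and 0.643 in replicate 2, at 46.5, 954.4 and 1120.3 kb into the gene. In Rbfox3 the peak at 172.5 kb had 4.51 and 1.87, the peak at 337.8 kb had 3.0 and 1.03 with identical ends in both libraries, and an exonic peak at 420.6 kb had 3.06 and 2.06. The Mbnl1 peak at 129.0 kb had 2.66 and 1.97, or percentiles 76.2 and 71.2 of each library. It was the tallest inside peak of that gene in each library. The 6 shared sites of Rbfox1, Rbfox3 and Mbnl1 that lie outside exons are given as the stretch in both peaks, in the direction of their gene, at chr16:5931821-5931980, chr16:6839723-6839854, chr16:7005617-7005734, chr11:118739019-118739180, chr11:118573681-118573840 and chr3:60601794-60601950, with footprint bases in capitals; the Celf4 site is not shown as sequence.
Rbfox1 site at 46.5 kb: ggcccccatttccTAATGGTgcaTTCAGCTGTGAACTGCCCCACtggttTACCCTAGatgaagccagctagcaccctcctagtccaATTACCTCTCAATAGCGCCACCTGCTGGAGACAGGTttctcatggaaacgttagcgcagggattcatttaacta
Rbfox1 site at 954.4 kb: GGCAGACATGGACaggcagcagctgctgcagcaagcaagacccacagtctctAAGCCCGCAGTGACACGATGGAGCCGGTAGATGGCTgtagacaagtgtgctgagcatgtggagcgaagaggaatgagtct
Rbfox1 site at 1120.3 kb: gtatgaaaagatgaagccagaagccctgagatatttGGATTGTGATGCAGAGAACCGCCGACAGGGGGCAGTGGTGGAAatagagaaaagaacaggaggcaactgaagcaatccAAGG
Rbfox3 site at 172.5 kb: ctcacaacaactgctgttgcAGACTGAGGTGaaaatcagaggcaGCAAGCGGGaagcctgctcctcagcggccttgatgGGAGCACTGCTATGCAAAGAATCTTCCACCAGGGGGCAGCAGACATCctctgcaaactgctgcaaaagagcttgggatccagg
Rbfox3 site at 337.8 kb: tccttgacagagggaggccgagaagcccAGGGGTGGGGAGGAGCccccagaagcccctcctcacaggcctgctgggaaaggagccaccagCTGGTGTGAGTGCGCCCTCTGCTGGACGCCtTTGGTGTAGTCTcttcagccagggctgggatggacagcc
Mbnl1 site at 129.0 kb: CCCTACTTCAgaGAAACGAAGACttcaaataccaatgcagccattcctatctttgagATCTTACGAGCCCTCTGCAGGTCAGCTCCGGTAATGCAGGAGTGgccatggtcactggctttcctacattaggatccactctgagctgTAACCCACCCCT
The consensus of CTCF, a factor that anchors chromatin loops, was matched at 46.5 kb in Rbfox1 and at 172.5 and 337.8 kb in Rbfox3, in each case with all 12 bases inside footprints. Counted in the central 150 bp, 4 of the 8 shared inside peaks held the CTCF consensus, and so did 20.6% of the 6754 shared replicate 1 peaks away from starts over the genome. Of all inside peaks of the members, 11 of 249 held it in replicate 1 (4.42%) and 4 of 12 in replicate 2 (33.3%), against 5.61% and 13.8% of all peaks away from starts. CAGCTG was also in 4 of the 8, and in 15.9% of all shared peaks away from starts. With 8 sites these shares are coarse.

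Where peaks of the libraries overlapped, replicate 1 was the taller in all but 2 pairs. The 9 start pairs of the members had a median height ratio, replicate 1 over replicate 2, of 1.88 and a range of 0.614 to 6.4, and the 8 inside pairs had a median of 2.01 and a range of 1.24 to 4.49. Over all pairs the medians were 2.75 at starts and 1.97 away from starts. Mbnl2 had the largest ratio, 6.4, and a pair at Mbnl3 and a pair at Celf4 were taller in replicate 2. The pairs at member starts were 15.8% of the 57 start peaks in replicate 1 and 52.9% of the 17 in replicate 2, against 41.4% and 70.3% of all peaks at starts.

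**Figure D4:**
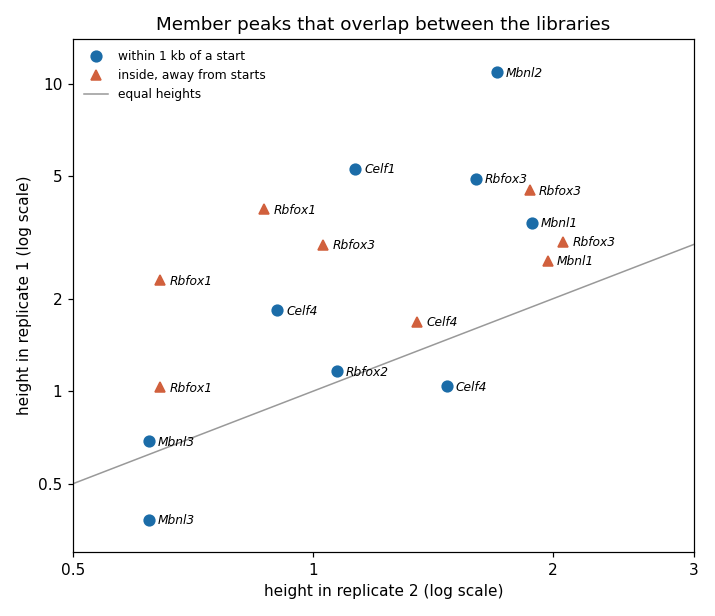
Heights of the member peaks that overlap between the libraries, replicate 1 on the vertical and replicate 2 on the horizontal axis, both log scales; circles lie within 1 kb of a start, triangles inside a gene away from starts, and the line marks equal heights. All 8 triangles lie above the line, and Mbnl2 is farthest above it at 10.9 against 1.7.

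Celf4, an RNA-binding protein of neurons, lies at chr18:25477632-25754157 on the minus strand. Its first region had the tallest start peak of any member in replicate 1, 11.2, and peaks of up to 1.47 in replicate 2. The 11.2 peak itself had no overlapping peak in replicate 2; the pairs there had heights of 1.04 and 1.83 in replicate 1 and 1.47 and 0.901 in replicate 2. Region 2, a noncoding start 1.5 kb from the first, lay within 1 kb of the same pairs. It held peaks of up to 1.83 in replicate 1 and 1.47 in replicate 2. Further in, region 4 held a peak of 0.674 in replicate 1, and regions 3 and 5 held none. Its shared inside peak, 27.2 kb in, had 1.68 and 1.35.

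The peaks at and inside the members held 830 footprints in replicate 1 and 54 in replicate 2. At least 1 footprint lay in 94.0% of the 249 inside peaks of replicate 1 and in 83.3% of the 12 of replicate 2, against 93.3% and 81.4% of all peaks away from starts. Mean footprints per inside peak were 2.7 and 1.83, against 2.64 and 2.04. Among member start peaks 82.5% in replicate 1 and 94.1% in replicate 2 held a footprint, against 86.5% and 82.7% of all peaks at starts. Mean footprints per start peak were lower than over all peaks at starts, at 2.91 and 1.88 against 3.38 and 3.37.

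Within 50 kb outside the members lay 56 peaks in replicate 1, 16 of its tallest and 15 in replicate 2. Several lay at starts of neighbouring genes. Those beyond the 3′ end of Mbnl2 at Rap2a, a small GTPase gene, reached 22.9 in replicate 1 and 3.18 in replicate 2. Beside Celf1, the peaks at Psmc3, a proteasome subunit gene, had 13.9 and 3.19, those at Kbtbd4 and Ndufs3 had 4.97 and 2.03, and replicate 2 alone had peaks, of up to 1.05, at Rapsn, which encodes the scaffold that clusters acetylcholine receptors at the neuromuscular junction. Replicate 1 alone had a peak at Slc39a13, of 1.43. Beyond the 3′ end of Rbfox3, peaks at Engase reached 11.1 and 2.03, and replicate 1 alone had a peak of 2.58 at C1qtnf1. Celf2 had none in either library.

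Of 38 other splicing regulators, 36 had a start peak in replicate 1, 32 among its tallest, 28 in replicate 2 and 28 in both. Over all protein-coding genes these shares were 66.7%, 49.6%, 51.4% and 51.0%. The epithelial regulators Esrp1 and Esrp2 had no start peak in either library. Fubp1, Ptbp1, Srsf1 and Hnrnph1, all broadly made, had start peaks of 19.0 to 28.5 in replicate 1 and 3.7 to 4.46 in replicate 2, above every member in each library. The Celf paralogs left out of the 9, Celf3, Celf5 and Celf6, had start peaks of 9.95, 4.22 and 13.9 in replicate 1, and only Celf6 had one in replicate 2, of 0.911. Inside the 38 genes lay 112 peaks in replicate 1, 15 of its tallest and 9 in replicate 2, which over their 2399 kb is 4.67, 0.625 and 0.375 per 100 kb. The members held 6.38, 1.23 and 0.307 per 100 kb, and 4.37, 0.593 and 0.156 without Rbfox3 and Celf4. No gene was left out of the 38, and Celf5 alone held 7 of their 9 inside peaks in replicate 2. Elavl3, Nova2 and Srrm4, regulators of neuronal splicing, had 3 each among the tallest peaks of replicate 1 and 0 in replicate 2, and Rbm20, a heart and muscle regulator of titin splicing, had 2 and 0. Celf5 had 0 and 7, Qk had 0 and 1, and Elavl1 had 1 and 1. Among all replicate 1 peaks, Celf5 held 11 inside and Qk held 4.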

How the data were processed

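Chromatin accessibility was measured by DNase-seq in 2 libraries of gastrocnemius. The deposited files hold 2 peak lists, an interval list and a footprint list per library on mm10, per the labels made from the filtered alignments of that library alone. How reads were aligned and peaks called is not given in the sources used here. For every peak, the authors scaled height by read depth, and that deposited signal is the value used. The deposited interval lists give an FDR, a corrected p-value, of at most 0.05. The deposited footprint score was 0.01 throughout, so footprints were not ranked. Read depth is not used here beyond the step of the heights.

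The peak list with fewer peaks of each library was used. Starts and genes came from GENCODE M21 and sequence from RefSeq GRCm38.p6, the same build. Peaks were counted as deposited, with a start window of 1 kb, starts joined within 500 bp and flanks of 50 kb. The 12 motifs were searched on both strands in the central 150 bp of peaks, and over the whole length of the stretches shown as sequence. The analysis used pysam 0.24.0, pandas 2.3.3, numpy 2.4.6 and matplotlib 3.10.9 under Python 3.11.15; interval code was tested on simulated peaks against bedtools 2.31.1. Members and lists were chosen with earlier results of these data known. Besides members, the rule named Celf3, Celf5 and Celf6, neighbours with a start at a counted peak, and up to 4 other splicing regulators each by tallest start peak and by inside peaks in each library. The muscle markers without a start peak and Esrp1 and Esrp2 were named after their values were seen. No test was made, since there is 1 group.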

Additional observations from a re-analysis of the deposited data

How the results depend on the processing

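Of 66 counts recomputed under other settings, 48 stayed within 1.5 times the reported count. With the longer peak lists the members held 416 inside peaks in replicate 1, 99 in its equal-number list, 44 in replicate 2 and 25 shared, with 90 peaks within 50 kb in replicate 1 and 29 in its equal-number list, and 105 footprints in replicate 2. Requiring an overlapping pair left 9 start regions open in both libraries. With replicate 1 cut to its tallest peaks, 8 start regions were open in both and 4 inside peaks were shared. Flanks of 20 kb held 20, 5 and 4 peaks in replicate 1, its equal-number list and replicate 2, and flanks of 100 kb held 154, 41 and 34, by construction. Leaving out a library turns these counts into those of the other library alone: members open at a start were 8 to 9, start regions 14 to 30, and inside peaks 12 to 249. Leaving out transcripts incomplete at their start was an alternative chosen after seeing the data, and all 5 of its counts stayed within that limit. Apart from flank width, whose effect is by construction, the cause of these differences was not tested. No paired analysis was possible because there is 1 group. Read depth per library is not used here, so a peak missing from replicate 2 may be a site below detection there.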
